A study of Drosophila melanogaster with 9 samples.

Results

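Set 2 is the second of 3 independent experiments in which descendants of obese grandfathers and control flies were compared in Drosophila melanogaster. It holds 3 of the 9 RNA-seq libraries, namely WT 2, GP/P 2 and GP/M 2, and was compared with sets 1 and 3, which hold 3 libraries each. The set of a library is the replicate number of its sample, and the design text of the series gives 1 set of samples to each experimental replicate. Genes were described where the mean over the 9 libraries was at least 50 raw counts, which held for 11766 of the 13140 genes listed. Just inside that limit lay wg with a mean of 50.11 counts and a log2 fold change of -0.15 for set 2, and just outside it CG6106 with 49.89 counts and -0.23. All 12913 genes that passed a filter on low counts, of which those 11766 are 91.1%, entered each test, so that no p-value was adjusted over a selected list.

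Every library was made from lysate of whole adults of the Canton S background, 10 to 11 days old and wild-type in genotype. WT flies had no obese grandparent. GP/P and GP/M flies were the F2 of an obese grandfather. The F1 parent that linked them to him was the father for GP/P flies and the mother for GP/M flies, and the labels give that parent as heterozygous. The obese ancestors were mutants of AkhR, which encodes the receptor of the lipid-mobilising adipokinetic hormone, per the title of the series. Neither GP/P nor GP/M flies carry the mutation themselves, per the genotype label. The labels used here state neither the sex of the flies nor how many were pooled.

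A whole-fly library adds up the transcripts of every tissue. Fat body stores triglyceride and releases it as lipoprotein-borne lipid, the midgut secretes serine proteases into its lumen, and clock genes turn on and off over the day in many tissues. A comparison of experiments within each group holds the ancestry group of the flies constant, which need not mean the same individual ancestors.

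Totals ranged from 21777434 to 28166388 counts per library. The 9 descriptions carry 1 common run and lane string, so sequencing lane did not separate the sets. Markers of the male accessory gland were high in all libraries, with Acp36DE at 1472 to 1653 CPM, which are reads scaled to a common library size, and the yolk protein gene Yp1 stood at 1.76 to 5.16 CPM. Head, muscle, gut, fat body and blood cell markers were all detected, for example ninaE, the main rhodopsin of the eye, at 7759 to 8479 CPM. AkhR itself, which the tables list under the symbol GRHR, was measured at 86.8, 91.9 and 98.8 CPM in set 2, 77.2, 76.9 and 78.7 in set 1 and 92.1, 87.2 and 80.6 in set 3, each time in the order WT, GP/P and GP/M that is kept below. Set 2 was above set 1 in every group and overlapped set 3, and AkhR did not pass the test (log2 fold change 0.17, adjusted p = 0.124). It passed without WT 2 (adjusted p = 0.0191) and without WT 3 (adjusted p = 0.00908), and without GP/M 2 the log2 fold change was 0.10.

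Set 2 stood between the other sets on the main axis of variation among experiments and apart from both on the next one. After the mean of each group was removed from log2 CPM, principal component 1 accounted for 39.95% of the remaining variance. On it the set 1 libraries scored -10.28 to -3.74, the set 2 libraries -3.73 to 0.87 and the set 3 libraries 5.31 to 11.27. The second component held 19.6%, and there set 2 scored 3.3 to 8.31, above every library of set 1 (-5.80 to -2.05) and of set 3 (-6.26 to 1.74). GP/M 2 lay farthest out on the second component and WT 2 least far.

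**Figure D1:**
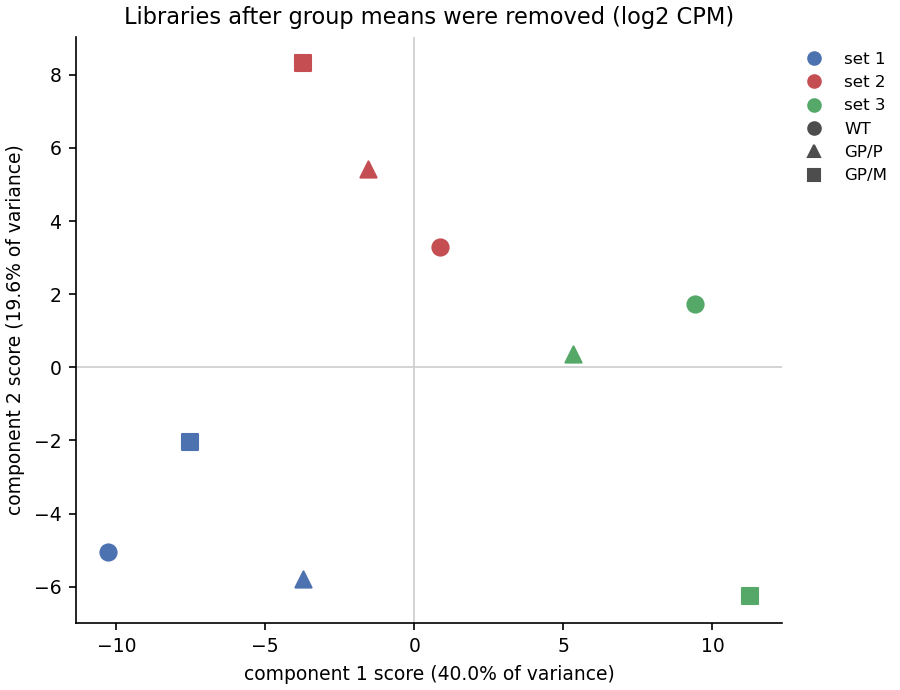
Principal components of log2 CPM after the mean of each group was removed, 1 point per library, with colour for the set and shape for the group. The 3 set 2 libraries lie in the middle of component 1, from -3.73 to 0.87, and at the top of component 2, from 3.3 to 8.31.

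Few genes set the second experiment apart, and by small amounts. Against the mean of sets 1 and 3, with the group as a term of the model, 121 of 12913 genes (0.937%) were called at an adjusted p under 0.05 in edgeR's quasi-likelihood test. Of these, 50 were higher in set 2 (0.387%) and 71 lower (0.55%), and all 121 had a mean of at least 50 counts. The median size of the 121 differences was 1.17-fold, and 4 of them reached 1.5-fold, namely CG8708, CG43235, CG14945 and CG34316. The log2 sizes ran from 0.12 to 0.82. For 98.8% of the genes described the 95% interval of the log2 fold change lay within 1.5-fold in either direction. That interval measures the spread of libraries around the set and group means, not the spread between experiments.

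The test has 1 experiment on one side and 2 on the other, so a p-value here measures the spread of libraries around the set and group means, not the spread between experiments. For comparison, set 3 against set 1 gave 2409 calls (18.7%), set 2 against set 3 gave 764 (5.92%) and set 2 against set 1 gave 319 (2.47%). The last 2 comparisons share the set 2 libraries. Set 2 was higher than set 1 for 192 genes and lower for 127, and higher than set 3 for 208 and lower for 556. Past the threshold on the same side of both other sets were 17 genes with set 2 highest (0.132%) and 26 with set 2 lowest (0.201%). These 43 were all among the 121; a further 51 of the 121 passed against set 1 alone and 27 against set 3 alone.

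Set 2 was also the experiment that took the extreme place least often. Among the 11766 genes, set 2 was the highest library of its group in all 3 groups for 642 (5.46%) and the lowest for 488 (4.15%). The same counts were 1111 (9.44%) and 1308 (11.1%) for set 1, and 1829 (15.5%) and 1701 (14.5%) for set 3. Of the 121 called genes, 96 had set 2 as the extreme library in all 3 groups, 21 in 2 groups and 4 in fewer. For 78 of the 121 no set 2 library overlapped any of the other 6 libraries. The 121 were chosen by a test on these same libraries, so these counts describe the calls and add no support to them. The share without overlap over all genes is not given here.

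**Figure D2:**
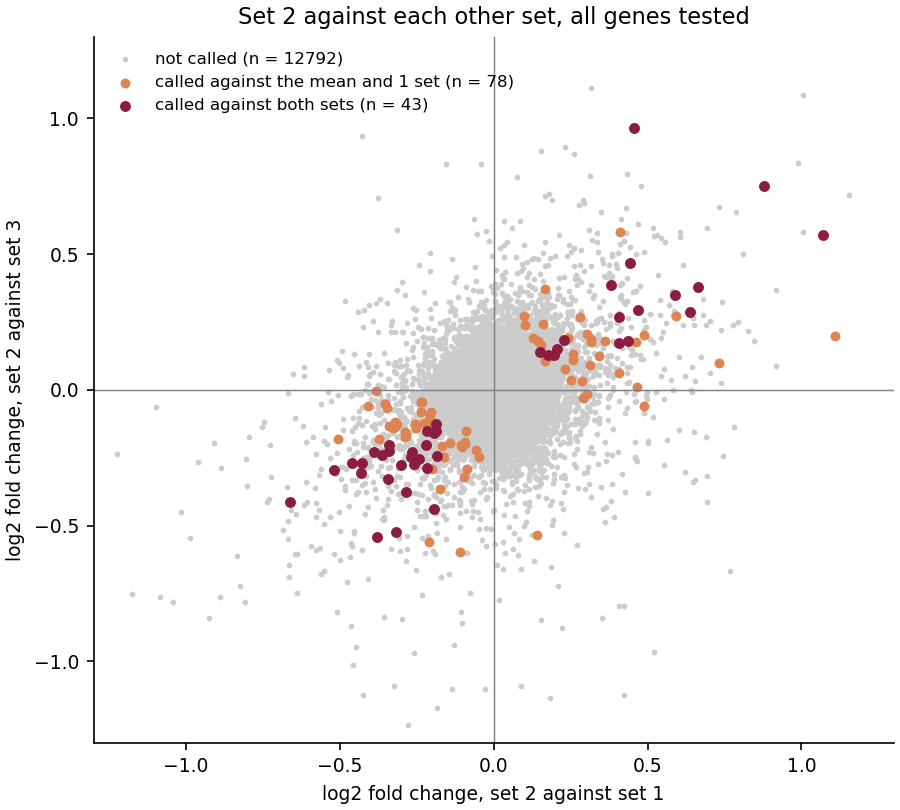
Log2 fold change of set 2 against set 1 (horizontal) and against set 3 (vertical) for the genes tested, which share the set 2 libraries on both axes; 2 uncalled genes lie outside the range drawn. The 43 genes called against both sets lie in the upper right (17) and the lower left (26), and the other 78 called genes passed against the mean and against 1 of the sets.

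The calls depended on single libraries, in number more than in direction. Leaving out 1 library at a time gave 24 calls without GP/M 2, 32 without GP/P 2 and 237 without WT 3, and 83 to 168 without any other. All 121 genes kept their direction in each of these 9 fits, which reuse the libraries that chose the 121. Of the 121, 15 passed in every one. Those 15 were singled out after these fits were seen: 9 were higher in set 2 and 6 lower. DESeq2 called 76 of the 121 genes, limma-voom 70, and 60 were called by all 3 tools.

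Among the 9 that were higher, Cpr67Fb, which encodes a protein of the insect cuticle, had the smallest p-value. It measured 76.2, 77.1 and 74.2 CPM in set 2, 50.8, 49.7 and 50.6 in set 1 and 56.0, 61.5 and 61.2 in set 3. The set 2 values lay close together and above all 6 others (log2 fold change 0.47, SE 0.0381, adjusted p = 1.99e-06), and the highest adjusted p with a library left out was 0.00028 without GP/P 2. Other cuticle genes did not follow: of 54 members tested 1 more passed, Cpr67B, at 71.1, 72.8 and 74.3 CPM in set 2, 85.6, 89.9 and 84.9 in set 1 and 79.1, 78.6 and 80.4 in set 3. That gene was lower in all 3 set 2 libraries than in any other (log2 fold change -0.19, SE 0.0345, adjusted p = 0.00915), a call that was lost without GP/P 2 (adjusted p = 0.144) and without WT 2 (adjusted p = 0.0569). The median of the cuticle list was 0.003 in log2, against 0.005 over all genes tested, of which 0.937% were called.

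CG8745 measured 209, 221 and 217 CPM in set 2, 142, 164 and 162 in set 1 and 177, 184 and 167 in set 3. No set 2 library overlapped the others (log2 fold change 0.38, SE 0.0358, adjusted p = 1.42e-05). CG43679 was at 54.4, 56.0 and 58.4 CPM in set 2, 41.1, 42.9 and 45.8 in set 1 and 44.3, 42.8 and 42.2 in set 3, again with no overlap (log2 fold change 0.38, SE 0.0421, adjusted p = 5.1e-05). For CG43679 the set 3 values lay within the range of set 1, and set 2 was above each by a log2 difference of 0.38 and 0.38.

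CG3940, now named CAH7 and encoding a carbonic anhydrase, was one of the 9 and was chosen after its values were seen. It measured 106, 103 and 104 CPM in set 2, 71.5, 77.4 and 83.2 in set 1 and 91.8, 96.4 and 88.5 in set 3. The lowest set 2 value stood above the highest of the other 6 (log2 fold change 0.31, SE 0.041, adjusted p = 0.000665). CG18302 measured 55.1, 58.9 and 62.4 CPM in set 2, 35.0, 37.4 and 40.9 in set 1 and 49.4, 50.6 and 44.6 in set 3. Set 2 was highest in every group and set 1 lowest (log2 fold change 0.46, SE 0.0524, adjusted p = 0.000196).

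CG43235 showed the largest difference of the 15. Its levels were 9.71, 11.9 and 12.7 CPM in set 2, 6.85, 5.62 and 6.09 in set 1 and 6.40, 6.70 and 7.26 in set 3. All 3 set 2 libraries exceeded the others, WT 2 by the least (log2 fold change 0.81, SE 0.0847, adjusted p = 3.98e-05). CG14945, now named PLCXD for its phospholipase C X domain, was at 13.3, 12.6 and 15.7 CPM in set 2, 8.63, 10.7 and 10.9 in set 1 and 6.54, 8.45 and 6.17 in set 3. Here set 3 rather than set 1 was the lowest in every group (log2 fold change 0.71, SE 0.0966, adjusted p = 0.00294). CG15449 was at 17.2, 17.8 and 17.8 CPM in set 2, 11.0, 11.9 and 10.4 in set 1 and 12.9, 14.4 and 13.3 in set 3, without overlap (log2 fold change 0.52, SE 0.0569, adjusted p = 5.1e-05).

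CG34316 measured 15.1, 16.1 and 16.0 CPM in set 2, 5.23, 8.65 and 8.11 in set 1 and 12.9, 15.3 and 13 in set 3. Set 1 was far below the other experiments and set 2 overlapped set 3 (log2 fold change 0.65, SE 0.0842, adjusted p = 0.00107). Against set 3 alone the log2 difference of CG34316 was 0.20 (adjusted p = 0.221), so its call against the mean rests on set 1. For 5 of these 9 genes the reference annotation has an exon of another gene on the opposite strand (an unnamed gene at Cpr67Fb, Ntf-2 at CG15449, TepII at CG43235, JhI-21 at CG14945 and CR43471 at CG34316). Because no source used here says how reads were assigned by strand, those counts may include reads of the partner. The same holds for Jheh1, Jheh2, Hsp83, CG5945, whd, CG5508, per, tim, cry, UGP, CG42351, Hexo2 and CG12923, which are described below, and features on the same strand share exon sequence with tim, cry, CG6910, CR43459, CG10659 and CG18031.

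CG8708 had the largest difference of all 121 genes. It measured 104, 112 and 112 CPM in set 2, 48.3, 50.6 and 57.1 in set 1 and 73.4, 81.2 and 66.2 in set 3. Set 2 exceeded every other library and set 1 was lowest (log2 fold change 0.82, SE 0.0655, adjusted p = 0.00121). The call was lost without GP/M 2 (adjusted p = 0.0641), where the log2 fold change was 0.79. The remaining genes that the naming rule took for large increases were CG8147 (0.43, adjusted p = 0.00653), CG8620 (0.46, adjusted p = 0.00915) and CG12310 (0.49, adjusted p = 0.0155). CG8147 lost its call without GP/P 2 (adjusted p = 0.0787) and without GP/M 2 (adjusted p = 0.0681), CG8620 in 3 of the 9 fits that left out 1 library (highest adjusted p = 0.101, without GP/M 2) and CG12310 without GP/M 2 (adjusted p = 0.209) and without WT 2 (adjusted p = 0.146).

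Of the 6 lower genes among the 15, Jheh1 had the smallest p-value. It encodes a juvenile hormone epoxide hydrolase, an enzyme that degrades juvenile hormone, and was chosen after its values were seen. The gene measured 171, 174 and 162 CPM in set 2, 227, 209 and 215 in set 1 and 208, 204 and 187 in set 3. Set 2 was lowest in each group with no overlap (log2 fold change -0.30, SE 0.0334, adjusted p = 5.1e-05). Its neighbour Jheh2, named for the same reason, was at 287, 290.1 and 282 CPM in set 2, 344, 315 and 322 in set 1 and 328, 330.2 and 300.3 in set 3. Jheh2 also fell without overlap (log2 fold change -0.18, SE 0.0326, adjusted p = 0.0111), but lost its call in 3 of the 9 fits that left out 1 library (highest adjusted p = 0.1, without GP/P 2).

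Cyp6w1, a cytochrome P450 gene, measured 119, 116 and 104 CPM in set 2, 167, 141 and 150.5 in set 1 and 142, 132 and 136 in set 3. The highest set 2 value was below the lowest of the other 6 (log2 fold change -0.35, SE 0.0393, adjusted p = 9.46e-05). Of 85 P450 genes tested, 2 passed and both were lower; the other was Cyp12d1-p, at 15.2, 15.8 and 14.2 CPM in set 2, 17.8, 18.5 and 17.7 in set 1 and 20.4, 18.6 and 16.0 in set 3 (log2 fold change -0.27, SE 0.0604, adjusted p = 0.0373). Cyp12d1-p has a near-identical copy, so its reads may be split or shared, and it lost its call in 5 of the 9 fits that left out 1 library (highest adjusted p = 0.224, without GP/M 2). Neither DESeq2 nor limma-voom called it (adjusted p = 0.204 and 0.0771). The median of the P450 list was -0.02, and 0.55% of all genes tested were called lower.

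CG6910, now named Miox and encoding a myo-inositol oxygenase, measured 729, 710.2 and 755 CPM in set 2, 987, 942 and 939 in set 1 and 799, 859 and 916 in set 3. Set 2 lay below all others (log2 fold change -0.31, SE 0.0356, adjusted p = 0.00012). For fit, a gene of the fat body around the head whose product acts as a satiety signal, the levels were 90.1, 87.7 and 99.2 CPM in set 2, 129, 130.0 and 122 in set 1 and 116, 103 and 116 in set 3. Set 2 was lowest in all groups (log2 fold change -0.37, SE 0.0434, adjusted p = 0.000379). A gene on each strand overlaps exons of fit in the reference annotation, CG31465 on the opposite one, so its counts may not be those of fit alone.

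CG6830 measured 144, 125 and 135 CPM in set 2, 165, 151 and 145 in set 1 and 191, 165 and 191 in set 3. Its set 2 levels were below set 1 and set 3 alike (log2 fold change -0.32, SE 0.0375, adjusted p = 0.00012), and the opposite strand carries exons of Ho. CG2187 was at 17.9, 16.0 and 17.7 CPM in set 2, 26.0, 22.8 and 25.3 in set 1 and 19.6, 19.9 and 23.7 in set 3, with set 2 lowest and no overlap (log2 fold change -0.41, SE 0.0572, adjusted p = 0.000861).

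**Figure D3:**
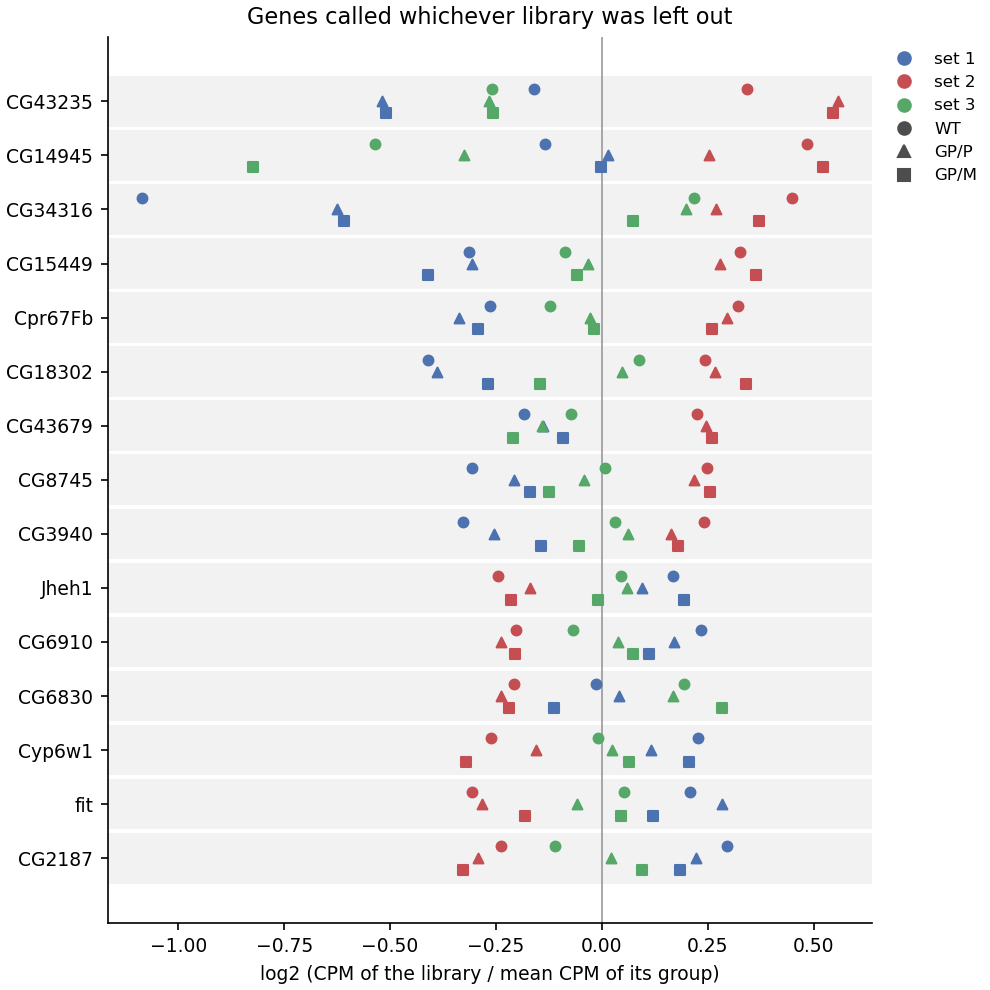
The 15 genes called whichever library was left out, each library drawn as log2 of its CPM over the mean CPM of its group, with colour for the set and shape for the group. The set 2 points lie to the right of the other 6 for the 9 genes that were higher, by a small margin over set 3 in CG34316, and to the left for the 6 that were lower.

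Larger decreases outside these 15 were seen in CG13482 (-0.54, adjusted p = 0.0246), Jon65Ai, dpr (now dpr1, a neuronal cell surface protein; -0.42, adjusted p = 0.00159), the non-coding CR43459 (-0.39, adjusted p = 0.0329) and CG11912 (-0.37, adjusted p = 0.0224). CG13482 ranged from 20.9 to 29.2 CPM in set 2 and from 29.1 to 41.9 in the other sets, so the libraries overlapped. CG10621 (-0.34, adjusted p = 0.00946), Peritrophin-15a, a protein of the gut lining (-0.34, adjusted p = 0.00789), and CG9568 (-0.33, adjusted p = 0.0155) complete that part of the rule. CR43459 did not pass against set 1 alone (-0.21, adjusted p = 0.363), nor CG10621 against set 3 alone (-0.18, adjusted p = 0.0885). The call of dpr was lost without GP/M 2 (adjusted p = 0.06), that of CG10621 without GP/P 2 (adjusted p = 0.0672) and that of Peritrophin-15a without GP/P 2 (adjusted p = 0.179). CG13482 lost its call in 5 of the 9 fits that left out 1 library (highest adjusted p = 0.178, without GP/P 2), CR43459 in 6 of the 9 fits that left out 1 library (highest adjusted p = 0.305, without GP/M 2), CG11912 in 3 of the 9 fits that left out 1 library (highest adjusted p = 0.198, without GP/P 2) and CG9568 in 3 of the 9 fits that left out 1 library (highest adjusted p = 0.146, without GP/P 2). DESeq2 gave no adjusted p for CG8620, CG12310 or CR43459 and did not call CG11912 (adjusted p = 0.109), limma-voom did not call CG11912 or CR43459 (adjusted p = 0.0575 and 0.0645), and with the trend on exon length removed CG13482 and CG10621 were not called (adjusted p = 0.0849 and 0.0863).

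Gut proteases formed the list with the most calls. Of 26 gut serine protease genes tested, 4 were called lower in set 2 and none higher. Of the 26, 19 lay below 0, with a median log2 fold change of -0.04. Over all genes tested, 0.55% were called lower and 6130 of 12913 lay below 0. In whole flies, fewer gut cells and less RNA per cell cannot be told apart. Jon65Ai, a Jonah chymotrypsin-like protease gene, measured 20.2, 19.8 and 18.5 CPM in set 2, 22.7, 27.4 and 26.3 in set 1 and 28.5, 25.9 and 31.3 in set 3. It was lowest in set 2 without overlap (log2 fold change -0.46, SE 0.0714, adjusted p = 0.00736), and the call was lost without GP/P 2 (adjusted p = 0.0668) and without GP/M 2 (adjusted p = 0.0661).

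The 3 others of the list had set 1 high rather than set 2 alone low. For yip7 the levels were 1117, 1160.2 and 1122 CPM in set 2, 1592, 1427 and 1491 in set 1 and 1115, 1230.4 and 1199.9 in set 3. Set 1 stood above all others, and set 2 overlapped set 3 (log2 fold change -0.23, SE 0.039, adjusted p = 0.00932). Against set 3 the log2 difference of yip7 was -0.06 (adjusted p = 0.451). Jon65Aiv (-0.19, adjusted p = 0.0243) and Jon25Bi (-0.22, adjusted p = 0.0377) also stood highest in set 1 and overlapped set 3 in set 2. These calls were lost for yip7 in 3 of the 9 fits that left out 1 library (highest adjusted p = 0.176, without GP/M 2), for Jon65Aiv in 5 of the 9 fits that left out 1 library (highest adjusted p = 0.336, without GP/M 2) and for Jon25Bi in 5 of the 9 fits that left out 1 library (highest adjusted p = 0.176, without GP/M 2). The summed level of the list was 7054 to 7341 CPM in set 2, 8228 to 8896 in set 1 and 7216 to 7517 in set 3. No member of the 36 other gut genes tested (carbohydrases, lipases and lysozymes) passed, their median was 0.04, and their sums were 14551 to 14712 CPM in set 2, 13291 to 14132 in set 1 and 14265 to 15565 in set 3.

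Several genes of fat storage, transport, breakdown and synthesis were called lower in set 2, while most members of their lists did not pass. The share called lower over all genes tested was 0.55%. Of 13 fat body genes 3 passed, all lower, with a list median of -0.04; of 19 genes of lipolysis and fatty acid oxidation 2 passed, both lower, with a median of -0.01; and of 16 genes of fatty acid synthesis 1 passed, lower, with a median of -0.04. The gene bmm, which encodes the triglyceride lipase Brummer and sits in 2 of these lists, measured 143, 130.4 and 137 CPM in set 2, 145, 169 and 158 in set 1 and 163, 169 and 169 in set 3. Set 2 was lowest in each group, by little in WT and by more in GP/P and GP/M (log2 fold change -0.25, SE 0.0438, adjusted p = 0.0155). Against set 1 alone bmm did not pass (-0.20, adjusted p = 0.0522). Its call against the mean was lost in 3 of the 9 fits that left out 1 library (highest adjusted p = 0.227, without GP/M 2).

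CG15828, now named Apoltp and encoding the lipid transfer particle that loads lipoproteins, measured 186, 181 and 175 CPM in set 2, 195, 212 and 209 in set 1 and 209.9, 209 and 223 in set 3. All set 2 values lay below the other 6 (log2 fold change -0.21, SE 0.0356, adjusted p = 0.00411), and the call was lost without GP/M 2 (adjusted p = 0.107) and without GP/P 2 (adjusted p = 0.0628). Lsd-2, the perilipin that shields lipid droplets from lipases, was at 359.6, 363 and 347 CPM in set 2, 359, 393 and 388 in set 1 and 416, 412 and 400.4 in set 3. Set 2 lay below set 3 in each group, and WT 2 did not lie below WT 1 (log2 fold change -0.15, SE 0.0321, adjusted p = 0.0309). Against set 1 alone Lsd-2 did not pass (-0.09, adjusted p = 0.255). The call of Lsd-2 was lost in 5 of the 9 fits that left out 1 library (highest adjusted p = 0.403, without GP/M 2). It was not made by limma-voom (adjusted p = 0.0657).

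The gene whd, which encodes the carnitine palmitoyltransferase that admits fatty acids to mitochondria, measured 278, 267 and 269 CPM in set 2, 303, 323 and 319 in set 1 and 308, 304 and 293 in set 3. Set 2 was lowest in every group without overlap (log2 fold change -0.18, SE 0.0319, adjusted p = 0.00647), and the call was lost without GP/P 2 (adjusted p = 0.146) and without GP/M 2 (adjusted p = 0.0718). CG5508, now named mino, encodes an acyltransferase of glycerolipid synthesis and was called against the mean (-0.14, adjusted p = 0.0308). That call rests on set 3 (-0.22, adjusted p = 0.00262), with -0.06, adjusted p = 0.505 against set 1 and WT 2 above WT 1. It was lost in 4 of the 9 fits that left out 1 library (highest adjusted p = 0.373, without GP/P 2) and was not made by limma-voom (adjusted p = 0.0595). The hormone-sensitive lipase gene Hsl, listed as CG11055, was at 69.2, 71.8 and 69.2 CPM in set 2, 67.1, 70.4 and 69.0 in set 1 and 71.9, 72.7 and 71.6 in set 3 and gave a log2 fold change of -0.007 (adjusted p = 0.954). The other perilipin gene, Lsd-1 (-0.02, adjusted p = 0.891), and the lipophorin gene apolpp, listed as Rfabg (-0.04, adjusted p = 0.668), did not pass either. The summed level of the fat body list was 4799 to 4915 CPM in set 2, 4459 to 4668 in set 1 and 5305 to 5854 in set 3, so it lay between the other sets.

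The 5 clock genes that peak in the early night had log2 fold changes above 0 in set 2. The 2 that peak near dawn lay below 0, and 1 of the 7 passed. Among all genes tested, 0.937% passed and 6783 of 12913 lay above 0. The gene vri encodes a repressor of Clk transcription and measured 101, 98.4 and 97.7 CPM in set 2, 71.8, 82.7 and 69.6 in set 1 and 83.7, 90.1 and 90.0 in set 3. Set 2 was highest in each group without overlap (log2 fold change 0.29, SE 0.0414, adjusted p = 0.00121), and the call was lost without GP/M 2 (adjusted p = 0.0564). The partners of the negative limb of the clock, tim and per, were named after their values were seen. Levels of tim were 253, 225 and 240.0 CPM in set 2, 122, 192 and 124 in set 1 and 178, 210.0 and 189.9 in set 3. Set 2 stood above every other library, but sets 1 and 3 spread widely, and edgeR did not call tim (log2 fold change 0.53, SE 0.158, adjusted p = 0.344) while DESeq2 and limma-voom did (adjusted p = 0.0429 and 0.0256), as did edgeR without GP/P 1 (adjusted p = 0.00642).

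For per the levels were 25.5, 25.6 and 24.3 CPM in set 2, 18.4, 22.9 and 21.3 in set 1 and 21.9, 22.9 and 23.2 in set 3. Set 2 was again above all others, short of the threshold (log2 fold change 0.21, SE 0.0543, adjusted p = 0.0747), and per passed with the trend on exon length removed (adjusted p = 0.012). Pdp1 (0.08, adjusted p = 0.363) and cwo (0.08, adjusted p = 0.902), also named after their values were seen, completed the early-night list; cwo was high in WT 2 and not in GP/P 2 or GP/M 2, and its sign turned without WT 2 (-0.12), WT 3 (-0.02) or the whole WT group (-0.11). The value of Pdp1 was 0.05 without GP/M 1 and 0.03 without GP/M 2. The 5 genes summed to 676 to 720.5 CPM in set 2, 488 to 612 in set 1 and 611 to 667 in set 3. Of the dawn genes, Clk measured 42.2, 45.7 and 38.8 CPM in set 2, 44.2, 48.1 and 49.2 in set 1 and 45.8, 48.7 and 53.5 in set 3 and was lowest in set 2 in each group without passing the test (log2 fold change -0.19, SE 0.0537, adjusted p = 0.129). Without GP/M 2 the log2 fold change of Clk was -0.09 (adjusted p = 0.801). The photoreceptor gene cry gave -0.06 (adjusted p = 0.607) and ran from -0.11 without GP/P 2 to -0.02 without WT 2.

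**Figure D4:**
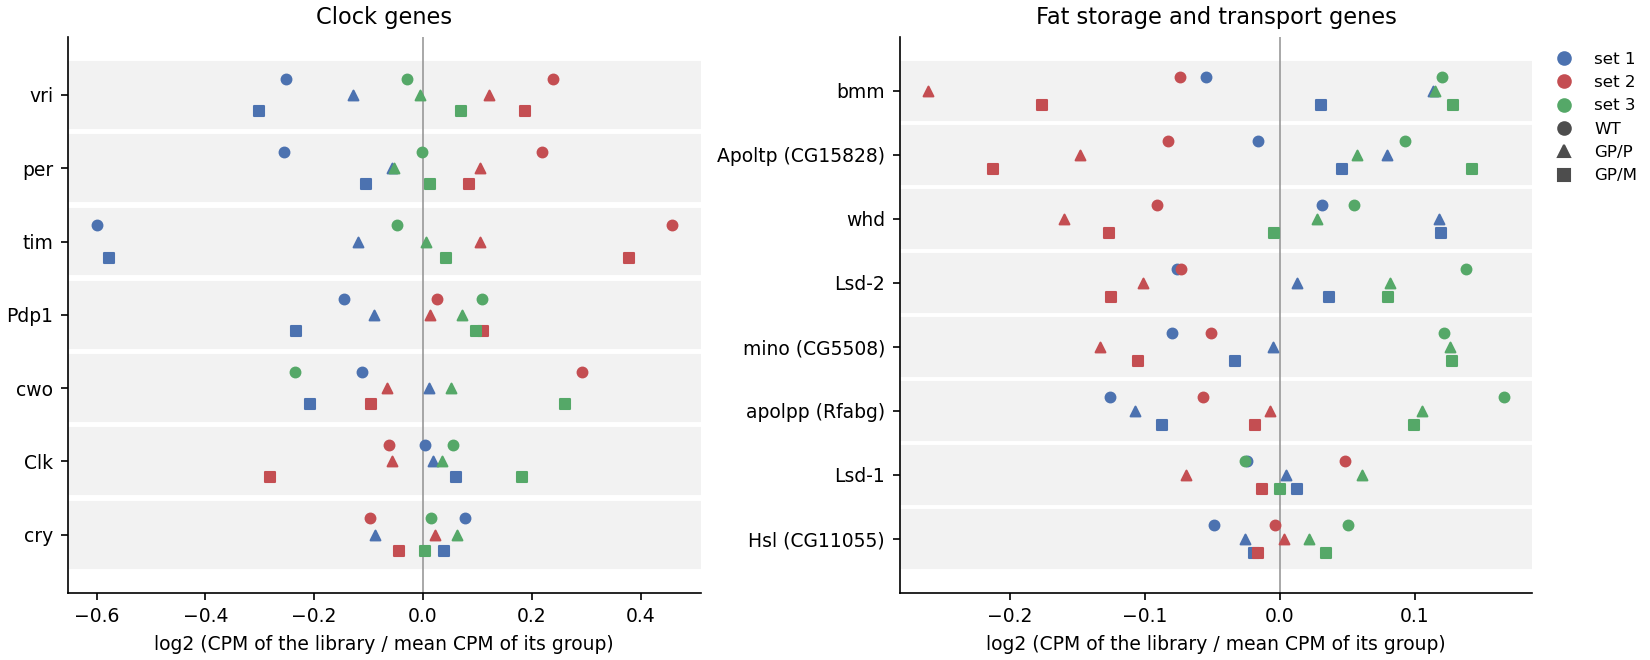
Clock genes (left) and genes of fat storage and transport (right), each library drawn as log2 of its CPM over the mean CPM of its group, with colour for the set and shape for the group. Set 2 lies to the right for vri, per and tim, of which vri was called, and to the left for Apoltp and whd without overlap, while Hsl, Lsd-1 and apolpp show no separation of set 2.

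The share called over all genes tested was 0.937%. Of 34 antimicrobial and recognition genes tested 1 passed, dro4 (now Drsl4, of the drosomycin family; 0.20, adjusted p = 0.0394), with a list median of -0.13. That median was not shared by the groups: it was positive for WT libraries (0.04) and negative for GP/P (-0.20) and GP/M (-0.14) libraries. The gene dro4 passed against set 3 (0.24, adjusted p = 0.0143) and not against set 1 alone (0.16, adjusted p = 0.12). Of 21 heat shock genes 1 passed, the Hsp90 gene Hsp83. It measured 1156, 1245 and 1209 CPM in set 2, 992, 1125 and 1078 in set 1 and 1087, 1128 and 1089 in set 3. Set 2 lay above all others by a small margin (log2 fold change 0.15, SE 0.0286, adjusted p = 0.0114), and the call was lost in 3 of the 9 fits that left out 1 library (highest adjusted p = 0.206, without GP/M 2). The heat shock list as a whole had a median of -0.008. The Turandot stress gene TotA, named after its values were seen, did not pass (-0.35, adjusted p = 0.517). Its value was -0.53 without GP/P 2, and it passed without GP/P 1 (-0.45, adjusted p = 0.00647).

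Other lists held 1 or 2 calls each, where 0.937% of all genes tested were called. Of 31 UDP-glycosyltransferase genes 1 was called higher, Ugt86Dh (0.25, adjusted p = 0.0421), and 1 fell, CG5999 (-0.27, adjusted p = 0.0258), with a median of 0.003. Of 42 odorant-binding protein genes Obp49a fell (-0.21, adjusted p = 0.0227; list median 0.03). Of 33 neuropeptide genes Nplp3 rose (0.16, adjusted p = 0.0421; list median -0.02). Of 12 genes of trehalose, glycogen and glucose synthesis UGP, which makes UDP-glucose, was called (0.13, adjusted p = 0.0449; list median 0.04). Set 2 exceeded set 1 in UGP (0.29, adjusted p = 6.7e-05) and not set 3 (-0.03, adjusted p = 0.652), so the call rests on set 1. Ugt86Dh passed against set 1 (0.32, adjusted p = 0.0125) and did not against set 3 (0.18, adjusted p = 0.113). CG5999 (-0.17, adjusted p = 0.223) and Nplp3 (0.15, adjusted p = 0.0627) did not pass against set 1 alone.

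Of 58 seminal fluid genes tested, 55 lay above 0 with a median of 0.08, and 1 passed, Sfp96F (0.22, adjusted p = 0.0481). For comparison, 6783 of all 12913 genes tested lay above 0 and 0.937% passed. The seminal fluid median was 0.04 against set 1, with 1 called higher, and 0.12 against set 3, with 10 called higher. Over all 12913 genes tested, 192 were called higher against set 1 and 208 against set 3. The sum of these genes was 16035 to 17240.0 CPM in set 2, 15344 to 17450.0 in set 1 and 14934 to 15754 in set 3. Leaving out 1 library removed the calls of dro4 in 7 of the 9 fits that left out 1 library (highest adjusted p = 0.444, without GP/M 2) and of Sfp96F in 7 of the 9 fits that left out 1 library (highest adjusted p = 0.316, without GP/P 2). Those of Ugt86Dh were lost in 7 of the 9 fits that left out 1 library (highest adjusted p = 0.445, without GP/P 2), of CG5999 in 5 of the 9 fits that left out 1 library (highest adjusted p = 0.185, without GP/P 2), of Obp49a in 3 of the 9 fits that left out 1 library (highest adjusted p = 0.236, without GP/M 2), of Nplp3 in 7 of the 9 fits that left out 1 library (highest adjusted p = 0.456, without GP/P 2) and of UGP in 8 of the 9 fits that left out 1 library (highest adjusted p = 0.596, without GP/M 2). With the trend on exon length removed, dro4, Sfp96F and Nplp3 were not called (adjusted p = 0.143, 0.0788 and 0.0863). Neither DESeq2 nor limma-voom called Ugt86Dh (adjusted p = 0.291 and 0.0784), CG5999 (adjusted p = 0.191 and 0.054), Nplp3 (adjusted p = 0.204 and 0.0679), Sfp96F (adjusted p = 0.284 and 0.0851) or UGP (adjusted p = 0.0596 and 0.0733). DESeq2 did not call Obp49a (adjusted p = 0.124), and limma-voom did not call dro4 (adjusted p = 0.0595).

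The other 27 of the 41 lists had no called member, with medians from -0.124 (2 dawn clock genes) to 0.396 (transcripts of the mitochondrial genome). In all, 22 of 1261 distinct list members passed (1.74%), against 0.937% of all genes tested. Above 0 lay 6783 of all 12913 genes tested. In the respiratory chain 74 of 86 genes did, with a median of 0.03, and 89 of 93 cytosolic ribosomal protein genes did, with a median of 0.03. In these lists set 2 was below set 1 (medians -0.02 and -0.04) and above set 3 (0.10 and 0.11). Of 35 neuronal genes 30 lay below 0, with a median of -0.06, where 6130 of all 12913 genes tested did. The neuronal median was 0.01 against set 1, with no call, and -0.13 against set 3, with 11 called lower. Over all 12913 genes tested, 556 were called lower against set 3. Among 10 equal bins of genes by exon length, the median against set 3 was 0.092 in the shortest and -0.13 in the longest. Whether length accounts for the medians of these lists was not tested.

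Gene length moved with the comparison. Across genes, the log2 fold change of set 2 against the mean of the others had a Spearman correlation with exon length of -0.28, a description over genes measured in the same libraries. Its median was 0.040 in the shortest of 10 equal bins of genes and -0.041 in the longest. The correlation was 0.17 against set 1 and -0.51 against set 3. When each library's trend on exon length was removed, 157 genes were called, 109 of them among the 121. Against set 3 alone the number of calls then fell from 764 to 186.

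The most abundant genes that the rule named differed by little. Higher were Hsp83, CG1213, CG31883, CG9259 and Anp, the antibacterial peptide andropin of the male reproductive tract. CG1213 measured 616, 634 and 644 CPM in set 2, 502, 514 and 507 in set 1 and 605, 598 and 576 in set 3. It was above all others in set 2 by a narrow margin over WT 3 (log2 fold change 0.20, SE 0.0288, adjusted p = 0.000994). The call was lost without GP/M 2 (adjusted p = 0.0641). CG1213 did not pass against set 3 alone (0.09, adjusted p = 0.116), nor did Anp against set 1 alone (0.13, adjusted p = 0.108). CG31883 (0.14, adjusted p = 0.0348), CG9259 (0.16, adjusted p = 0.0113) and Anp (0.16, adjusted p = 0.0276) lost their calls in 7 of the 9 fits that left out 1 library (highest adjusted p = 0.546, without GP/M 2), in 3 of the 9 fits that left out 1 library (highest adjusted p = 0.194, without GP/M 2) and in 5 of the 9 fits that left out 1 library (highest adjusted p = 0.224, without GP/M 2), respectively; DESeq2 and limma-voom did not call CG31883 (adjusted p = 0.0692 and 0.0735) or Anp (adjusted p = 0.0516 and 0.0673).

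Lower among the abundant genes were Adh and Adhr, CG6910, CG5945 and Xrp1, a transcription factor gene. Adh, which encodes alcohol dehydrogenase, measured 3838, 4023 and 4086 CPM in set 2, 4535, 4580.1 and 4941 in set 1 and 3891, 4231 and 4209.8 in set 3. Set 2 was lowest in each group but overlapped set 3 across groups (log2 fold change -0.14, SE 0.0284, adjusted p = 0.02). The call was lost in 4 of the 9 fits that left out 1 library (highest adjusted p = 0.351, without GP/M 2). Adh passed against set 1 (-0.23, adjusted p = 0.000313) and not against set 3 (-0.05, adjusted p = 0.433). Adhr shares exons with Adh in the annotation and its counts were within 2 percent of those of Adh in all libraries, so the pair is 1 measurement. CG5945, now named Jhbp13, was called lower against the mean (-0.14, adjusted p = 0.0134). It passed against set 1 (-0.20, adjusted p = 0.00113) and not against set 3 (-0.08, adjusted p = 0.121). The call of CG5945 was lost in 3 of the 9 fits that left out 1 library (highest adjusted p = 0.185, without GP/P 2). Xrp1 was also called lower against the mean (-0.12, adjusted p = 0.0449). It passed against set 3 (-0.15, adjusted p = 0.0121) and not against set 1 (-0.09, adjusted p = 0.186). The call of Xrp1 was lost in 6 of the 9 fits that left out 1 library (highest adjusted p = 0.462, without GP/M 2). It was also lost with the trend on exon length removed (adjusted p = 0.0899) and not made by limma-voom (adjusted p = 0.0575).

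Further called genes with a known role are given here as chosen after their values were seen. The droplet protein gene Jabba, listed as CG42351, rose (0.14, adjusted p = 0.0481), as did FarO, a fatty acyl-CoA reductase gene listed as CG18031 (0.18, adjusted p = 0.0114), Gld, which encodes glucose dehydrogenase (0.16, adjusted p = 0.0273), and Hexo2, a hexosaminidase gene (0.34, adjusted p = 0.00647). AANATL3, an N-acetyltransferase gene listed as CG10659, was called against the mean (0.42, adjusted p = 0.0449), a call that rests on set 1 (0.73, adjusted p = 0.00408), since against set 3 the log2 difference was 0.10, adjusted p = 0.528. The pseudokinase gene trbl (-0.25, adjusted p = 0.0233), the clotting gene fon (-0.22, adjusted p = 0.0114), the fatty acid elongase gene Elovl7, listed as CG2781 (-0.16, adjusted p = 0.0255), and DOR (-0.17, adjusted p = 0.0169) fell. Without 1 library their calls were lost for Jabba in 8 of the 9 fits that left out 1 library (highest adjusted p = 0.547, without GP/M 2), for FarO in 3 of the 9 fits that left out 1 library (highest adjusted p = 0.158, without GP/P 2), for Gld in 5 of the 9 fits that left out 1 library (highest adjusted p = 0.352, without GP/M 2), for Hexo2 without GP/M 2 (adjusted p = 0.18) and without GP/P 2 (adjusted p = 0.0628) and for AANATL3 in 5 of the 9 fits that left out 1 library (highest adjusted p = 0.204, without GP/P 2). They were lost for trbl in 3 of the 9 fits that left out 1 library (highest adjusted p = 0.379, without GP/M 2), for fon without GP/M 2 (adjusted p = 0.176) and without GP/P 2 (adjusted p = 0.172), for Elovl7 in 4 of the 9 fits that left out 1 library (highest adjusted p = 0.364, without GP/M 2) and for DOR in 3 of the 9 fits that left out 1 library (highest adjusted p = 0.314, without GP/M 2). AANATL3 was also not called with the trend on exon length removed (adjusted p = 0.0767). Against set 3 alone, fon, Jabba, FarO and Elovl7 did not pass (adjusted p = 0.11, 0.0941, 0.106 and 0.0695). Gld did not pass against set 1 alone (adjusted p = 0.0638). Neither DESeq2 nor limma-voom called Jabba (adjusted p = 0.135 and 0.0942) or Gld (adjusted p = 0.0915 and 0.0646), and limma-voom did not call trbl (adjusted p = 0.054) or Elovl7 (adjusted p = 0.0595).

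A call against the mean did not always put set 2 at an extreme. Npc1b, which takes up sterol in the midgut, measured 35.8, 34.6 and 36.8 CPM in set 2, 32.4, 31.6 and 33.1 in set 1 and 52.4, 49.1 and 54.0 in set 3. Set 2 lay between the other experiments, near set 1, in all 3 groups, and the call (log2 fold change -0.20, SE 0.0417, adjusted p = 0.0249) came from set 3; it was lost in 4 of the 9 fits that left out 1 library (highest adjusted p = 0.217, without GP/M 2) and was not made by DESeq2 (adjusted p = 0.106). CG12923 and CG30008 had identical counts in all 9 libraries, so their 2 calls (-0.20, adjusted p = 0.00244) are 1 measurement. That call was lost without GP/M 2 (adjusted p = 0.0681). The pair passed against set 1 (-0.35, adjusted p = 1.87e-05) and not against set 3 (-0.05, adjusted p = 0.405).

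Whether set 2 deviated alike in the 3 groups was tested with terms for GP/P 2 and GP/M 2. Against WT, the deviation of GP/P differed for no gene (0%; lowest adjusted p = 0.0592, and 352 genes, 2.73%, at an unadjusted p under 0.05), and that of GP/M for 2 genes (0.0155%; 627 genes, 4.86%, at an unadjusted p under 0.05). Each deviation rests on 1 set 2 library of its group, and the fit had 2 residual degrees of freedom. DESeq2 and limma-voom each called 3 genes.

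The first of the 2 genes was mt_ATPase6, a subunit gene of ATP synthase on the mitochondrial genome. It measured 234, 321 and 356 CPM in set 2, 280.1, 223 and 199 in set 1 and 249, 239 and 202 in set 3. WT 2 was below both other WT libraries, while GP/P 2 and GP/M 2 were above theirs. The deviation of GP/M exceeded that of WT by 1.00 in log2 (SE 0.101, adjusted p = 0.000124), and that of GP/P by 0.65 (adjusted p = 0.0592). The call was lost without GP/M 3 (adjusted p = 0.248).

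The sum of the 13 mitochondrial transcripts tested had the same order. They came to 7677 CPM in WT 2, against 8588 and 8145 in WT 1 and WT 3. In GP/P 2 they summed to 8614, against 7582 and 7822, and in GP/M 2 to 8830.2, against 7539 and 7586. So set 2 was lowest in WT and highest in both GP groups. GP/P 2 and GP/M 2 were each the highest of their group for the 9 protein-coding transcripts with a mean of at least 50 counts, which was not so for both in mt_ND6, mt_lrRNA, mt_tRNA_A or mt_tRNA_R. The cytochrome b gene mt_Cyt-b measured 139.7, 237 and 262 CPM in set 2, 219, 153 and 124 in set 1 and 162, 177 and 130.1 in set 3, and the deviation of GP/M exceeded that of WT by 1.49 in log2 (SE 0.399, adjusted p = 0.996). Against the mean of sets 1 and 3 none of the 13 was called.

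**Figure D5:**
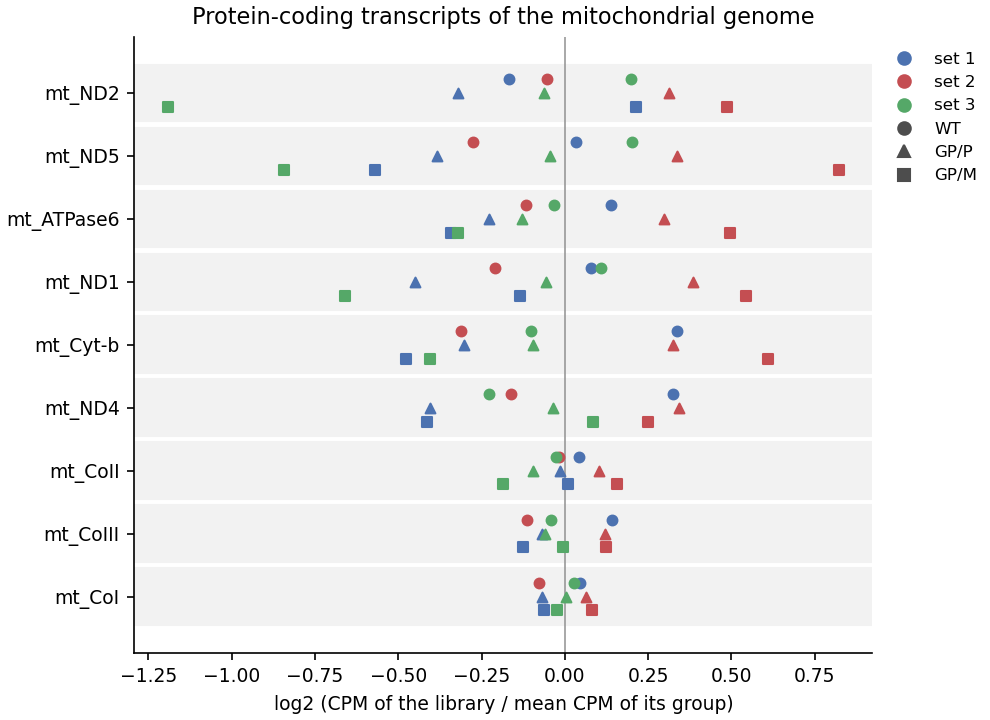
Protein-coding transcripts of the mitochondrial genome with a mean of at least 50 counts, each library drawn as log2 of its CPM over the mean CPM of its group, with colour for the set and shape for the group. GP/P 2 and GP/M 2 lie to the right for every transcript and WT 2 does not; mt_ATPase6 was the transcript for which the difference between GP/M and WT passed the test.

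The second gene was Acp98AB, of the accessory gland. It measured 235, 155.6 and 158 CPM in set 2, 159, 142 and 172 in set 1 and 188, 141 and 182 in set 3. WT 2 was well above the other WT libraries, GP/P 2 slightly above its own and GP/M 2 below. The deviation of GP/M minus that of WT was -0.60 in log2 (SE 0.0953, adjusted p = 0.0221). DESeq2 and limma-voom did not call it (adjusted p = 0.172 and 0.232), nor did edgeR when fitted to the genes of at least 50 counts alone (0.0563) or without GP/P 1 (0.0659), GP/P 3 (0.14), GP/M 1 (0.0627) or GP/M 3 (0.999).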

How the data were processed

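RNA of whole flies was extracted with Trizol and made into 9 libraries with a polyA TruSeq kit, per the labels' protocols. Raw counts per gene and library were deposited in 3 tables, each covering a pair of groups, per the file headers. Where tables share a library its counts were the same (0 of 117366 values differed). All pairs of libraries differed by more than counting noise. The deposited signal columns (counts scaled by the authors, and their base means) were not used, nor were the deposited log2 fold changes with their errors, the test scores and the deposited p-values of the authors' own comparisons. The submitters' processing notes name Novoalign, DESeq and dm3 as the build; versions, annotation and the treatment of strand and of multiply mapped reads are not given in the sources used here. The reference annotation is of another build, so no coordinates or sequences are printed, and 12627 identifiers were found in it for names and exon lengths.

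Libraries were grouped by the labels, and the replicate number gave the set. Counts were fitted with edgeR 4.0.16 in R 4.3.3 (TMM factors, filterByExpr by set, robust quasi-likelihood F-test) with terms for set and group over all 9 libraries, which left 4 residual degrees of freedom. The call threshold was a Benjamini-Hochberg adjusted p under 0.05 over the 12913 genes tested. Each adjusted p in the text is from this fit unless another tool or an alternative fit is named. Those for deviations between groups are from a separate edgeR fit with added terms for GP/P 2 and GP/M 2. The biological coefficient of variation was 4.36%. The standard error was taken as the absolute log2 fold change divided by the root of the F statistic. CPM are scaled by TMM and are not per length, and a prior count of 2 entered log2 CPM.

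The comparison, the 41 gene lists and the tests were chosen with earlier results of these data known. The naming rule took, among called genes with set 2 extreme in all 3 groups, the 12 largest differences and the 5 most abundant genes in each direction, at most 6 called members of a list (or 2 with the smallest p where none was called), the 5 smallest p of each deviation, and AkhR. It named 116 genes; a further 20 of the 76 genes refitted under each alternative lie outside it. The 22 alternatives were 10 other settings (size factors, filters, DESeq2 1.42.0, limma-voom of limma 3.58.1, no group term, thresholds, and a loess trend on exon length, span 0.5, removed), 9 fits without 1 library and 3 without 1 group. Leaving out libraries in the test of deviations was added after the data were seen. The scripts were tested on simulated data.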

Additional observations from a re-analysis of the deposited data

Results flagged for a closer look

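For 2 genes the test of the difference between the deviations of GP/M and WT in set 2 passed (edgeR's quasi-likelihood test, adjusted p under 0.05), with 1 set 2 library per group and 2 residual degrees of freedom. For mt_ATPase6 the deviation of GP/M minus that of WT was 0.998 in log2, with GP/M 2 above and WT 2 below the other libraries of their groups. For Acp98AB it was -0.603, with WT 2 above and GP/M 2 below the other libraries of their groups. The call of mt_ATPase6 was lost without GP/M 3 (adjusted p = 0.248). That of Acp98AB was not made by DESeq2 (adjusted p = 0.172) or limma-voom (adjusted p = 0.232), and was lost in 4 of the 6 fits without 1 library of sets 1 or 3 (adjusted p from 0.0627 to 0.999).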

How the results depend on the processing

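Of the 22 alternatives, 13 kept the 121 calls against the mean of sets 1 and 3 within 1.5 times. The others gave 79 (limma-voom), 37 (adjusted p under 0.01), 4 (at least 1.5-fold), and 282, 40 and 29 without the groups WT, GP/P and GP/M; without 1 library the range was 24 to 237. Against set 1 (319 calls), DESeq2 gave 212 calls in all, an adjusted p under 0.01 gave 123, at least 1.5-fold 16, the fits without GP/P and GP/M 113 and 112, and those without 1 library 112 to 417. Against set 3 (764 calls), the same settings gave totals of 487, 144, 17, 256 and 15, removal of the exon length trend 186, and the fits without 1 library 49 to 1150. Beyond both sets (43 calls), DESeq2 gave 23, limma-voom 28, an adjusted p under 0.01 gave 10, at least 1.5-fold 1, the fits without WT, GP/P and GP/M 88, 16 and 4, and those without 1 library 7 to 79. These are each fit's own totals, and genes shared with the main calls were counted for the comparison with the mean alone. The 2 genes with unequal deviations became 1 with only genes of at least 50 counts and 1 at an adjusted p under 0.01, and without 1 library of sets 1 or 3 the count ran from 2 to 86, with 1 residual degree of freedom. The causes were not tested.

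All 121 genes kept their sign under all 22 alternatives. The stricter threshold and the 1.5-fold limit reuse the main fit, so no sign could change there. The other alternatives draw on the same libraries that chose the 121. The sign of cwo, not called, turned without WT 2 (-0.116), WT 3 (-0.0198) and the group WT (-0.112), and without 1 library its value ran from -0.116 to 0.181. Other size factors moved the median of all genes to at most 0.014 in log2. No paired analysis was possible because the replicate number is the set, which is the comparison itself; the group entered as the block. With 3 libraries in 1 experiment, set 2 has no replicate experiment, and depth was not varied.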
